A study of Homo sapiens with 4 samples.

Results

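The 10 genes described here encode luminal keratins and proteins of epithelial cell junctions: KRT8, KRT18, KRT19, CDH1, EPCAM, CLDN3, CLDN4, CLDN7, TJP1 and OCLN. They were chosen by name, with earlier results of these data known, and were found by matching Entrez Gene identifiers to symbols, as 10 of the 19801 genes measured. RNA-seq was performed on LNCaP cells, a human prostate cancer line of luminal (secretory) type that responds to androgen. Cells received either an empty vector plasmid or a plasmid for AR1-651 during 24 h, and AIL was then present or absent during a further 12 h. AR1-651 is the construct whose response to AIL the study examined, and AIL (ailanthone) is a plant compound that it tested against prostate cancer cells. Each of the 4 groups had 1 library, so differences between them could not be set against replicate error and carry no p-value. Where 4 values follow each other, they stand for empty vector, then empty vector + AIL, then AR1-651, and last AR1-651 + AIL. All 4 groups were transfected LNCaP cells. Transfection was transient, and neither the share of cells that took up the plasmid nor a vehicle for AIL is given in the sources used here. The comparisons asked whether AR1-651 altered these genes and whether AIL altered them with and without AR1-651.

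Luminal epithelial cells are held in shape by keratin filaments, which assemble from a type II keratin such as KRT8 and a type I keratin such as KRT18 or KRT19, and these filaments are long-standing markers of the luminal layer of the prostate gland. Neighbouring cells adhere through E-cadherin, the product of CDH1, which binds catenins on its inner side and is commonly lost when epithelial cells become migratory. Tight junctions lie above these contacts and are built from claudins and occludin, which cross the membrane, and from scaffold proteins such as that of TJP1, which tie them to actin. EPCAM encodes a surface adhesion protein of epithelial cells that associates with the claudin of CLDN7.

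Levels are given in RPKM, a gene's reads divided by its exon length and by the library's total of mapped reads, as the authors deposited them, so different genes can be compared on this per-length scale. The low values of short genes lay on steps, each worth 1 read, which placed the libraries at about 5060000, 4800000, 5570000 and 5730000 counted reads. In the 4 libraries 65.1% to 67.5% of the low genes examined lay within 0.15 of a whole read, against 30% for evenly spread values. Read numbers in the text are estimates from these totals and the transcript length, and the intervals are exact 95% intervals that cover counting error only, since PCR copies and biological variation are not part of them. AR1-651 refers to the libraries so labelled, and KLK3, an androgen-induced gene of luminal prostate cells, stood at 287, 303, 1442 and 582 RPKM. All 8 luminal prostate markers examined reached 1 RPKM in every library, and none of 2 basal or 3 endothelial markers in the table did. Of the markers of other cell types, COL1A1 and ACTA2 of 6 stromal genes, CD68 of 3 immune genes, and ENO2 and SYP of 5 neuroendocrine genes reached 1 RPKM in some library, with the stromal sum between 4.42 and 10.95 RPKM. The AR1-651 library stood apart from the others in the share of summed RPKM held by ribosomal protein genes, 32.9% against 22.2% to 25.4%.

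All but KRT19 of the 10 genes were well expressed, and they covered a wide range of levels. KRT18 was the highest of the 10 in every library and KRT19 the lowest. With empty vector the order from the top was KRT18, CLDN4, CDH1, EPCAM, CLDN7, CLDN3, KRT8, OCLN, TJP1 and KRT19. In that library the counting intervals of EPCAM and CLDN7 overlapped (106 to 121 and 94.9 to 108 RPKM). Those of CLDN7, CLDN3 and KRT8 overlapped as well (CLDN3, 84.8 to 99.7 RPKM, and KRT8, 85.9 to 97.4 RPKM). OCLN and TJP1 also had overlapping intervals there (20.2 to 23.5 and 17.7 to 20.4 RPKM). Such overlap does not show equal levels, and no interval was taken for the ratio of different genes. The place of KRT8 differed most between libraries, from rank 7 with empty vector to rank 2 with AR1-651 and rank 3 in both libraries with AIL. CDH1 took rank 3 with empty vector, rank 6 with empty vector + AIL and rank 7 in both AR1-651 libraries.

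**Figure D1:**
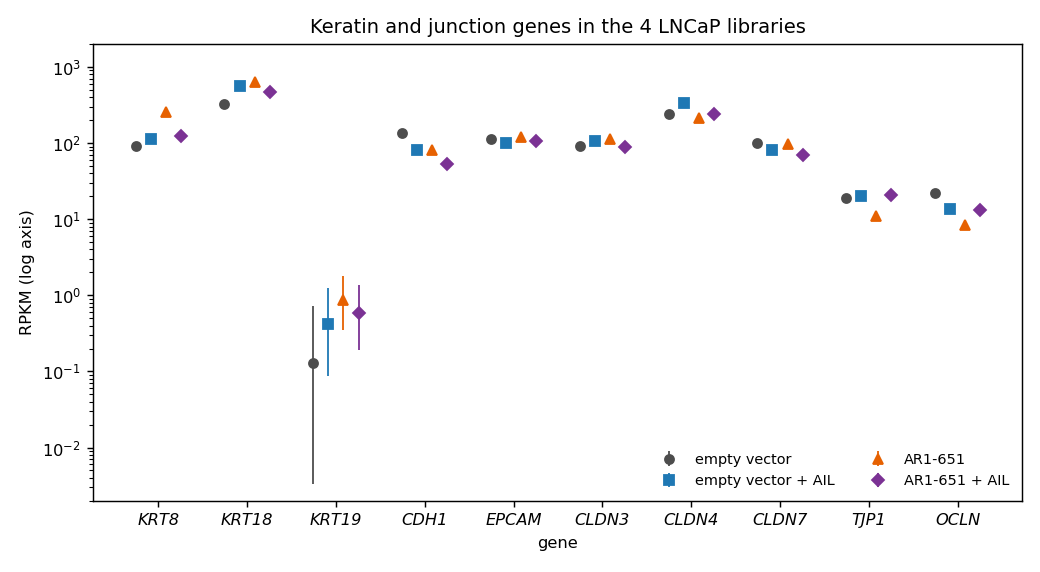
RPKM (log axis) of the 10 genes in the 4 LNCaP libraries, 1 symbol for each library. Vertical lines are exact 95% counting intervals and are hidden behind the symbol where narrow; KRT19 lies below 1 RPKM in every library, and the other genes lie between 8.48 and 638 RPKM.

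KRT8 and KRT18 had the largest differences above 0 with AR1-651 among the 10 genes, and with AIL their differences had opposite signs in empty vector and AR1-651 cells. KRT18 (Entrez Gene 3875) was at 325 RPKM with empty vector and 564 once AIL was added, and at 638 RPKM with AR1-651 and 474 once AIL was added. KRT8 (Entrez Gene 3856) was at 91.5, 114, 253 and 123 RPKM. Both keratins were lowest with empty vector and highest with AR1-651, with the AIL libraries between these. KRT8 with AR1-651 was 2.77 times its empty vector level (interval 2.57 to 2.97, 2997 against 985 reads), a difference of 1.46 in log2(RPKM + 1) that exceeded those of 98.8% of the 14626 genes that reached 1 RPKM in any library. KRT18 was 1.96 times its empty vector level (1.87 to 2.06), a difference of 0.97 that stayed just under 2-fold and passed it after median-ratio scaling of the libraries (1.24). AIL in AR1-651 cells went with lower levels of both. The KRT8 level was 2.06-fold lower once AIL was added (log2 difference -1.04, or -0.95 and so under 2-fold once the trends with transcript length and GC content were removed), and KRT18 was at 0.743 times its AR1-651 level (0.714 to 0.773). In empty vector cells, by contrast, AIL went with higher levels, 1.25 times for KRT8 (1.14 to 1.36) and 1.74 times for KRT18 (1.65 to 1.82). Between both AIL libraries the differences as deposited were smaller. KRT8 with AR1-651 + AIL was 1.08 times its level with empty vector + AIL, with an interval of 0.996 to 1.16 that includes equal levels. KRT18 was at 0.84 times (0.804 to 0.876). Genes of like GC content had a median log2 difference of -0.31 for KRT8 and -0.50 for KRT18 in this comparison. Once the trends with transcript length and GC content were removed, KRT8 went from 0.10 to 0.41 and KRT18 from -0.25 to 0.06.

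The 2 keratins did not keep a fixed proportion. KRT18 was 3.55, 4.95, 2.52 and 3.86 times KRT8 in the 4 libraries. The proportion was thus lowest in the AR1-651 library and higher with AIL than without it in both backgrounds. Their summed level was 416.5, 678, 891 and 596 RPKM. The genes are next to each other among the coding genes of chromosome 12. Both share much sequence with other genes, which limits their values. Of all 50-base stretches of the KRT8 transcript, 36.9% also occurred in transcripts of other genes, and for KRT18 the figure was 47.6%. The transcripts of KRT8P3 shared most with KRT8, and those annotated to KRT8 shared most with KRT18 (19% and 21.5% of the stretches), and GENCODE release 29 names 50 pseudogenes of KRT8 and 68 of KRT18. Of 100-base stretches, 7.75% of KRT8 and 16.6% of KRT18 were shared, those of KRT18 only with transcripts annotated to KRT8. How the authors assigned such reads is not given in the sources used here, so the levels of both keratins are uncertain. The part of the shared sequence in the differences was not tested.

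The sequence before a KRT8 start listed by RefSeq is shown because KRT8 differed most with AR1-651. RefSeq promoter windows were held for KRT8, CLDN3, CLDN4, CLDN7, TJP1 and OCLN, with 11 starts in all. Windows of 250 bases before each start were searched on both strands for CAGGTG, an E-box bound by SNAI and ZEB repressors, for GGGCGG, the GC box, and for TATAAA, the TATA box. Windows were not used here for KRT18, KRT19, CDH1 and EPCAM. The window before the KRT8 start listed by RefSeq lies at chr12:52926470-52926719 of GRCh38.p14 on the minus strand. It is printed 5′ to 3′ beside those of CLDN3 (chr7:73770271-73770520, minus strand) and of the first TJP1 start (chr15:29969050-29969299, minus strand), a claudin and a scaffold gene, with the matched motifs in capitals.
KRT8: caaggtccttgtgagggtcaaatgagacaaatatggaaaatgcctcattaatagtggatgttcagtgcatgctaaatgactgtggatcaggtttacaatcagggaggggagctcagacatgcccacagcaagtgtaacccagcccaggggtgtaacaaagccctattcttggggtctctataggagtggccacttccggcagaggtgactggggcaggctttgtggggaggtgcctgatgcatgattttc
CLDN3: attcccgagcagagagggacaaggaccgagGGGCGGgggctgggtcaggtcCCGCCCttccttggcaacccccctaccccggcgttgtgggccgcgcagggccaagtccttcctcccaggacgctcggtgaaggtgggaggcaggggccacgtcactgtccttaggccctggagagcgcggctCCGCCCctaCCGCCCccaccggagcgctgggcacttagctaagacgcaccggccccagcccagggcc
TJP1: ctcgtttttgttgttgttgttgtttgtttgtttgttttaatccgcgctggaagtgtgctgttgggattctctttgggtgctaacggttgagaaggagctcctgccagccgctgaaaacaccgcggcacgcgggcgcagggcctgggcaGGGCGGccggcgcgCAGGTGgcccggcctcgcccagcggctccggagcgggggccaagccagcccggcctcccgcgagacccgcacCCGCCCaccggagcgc
The KRT8 window held none of these motifs and 1 CpG, with a GC content of 50.4%. The CLDN3 window held 4 GC boxes and 19 CpG at 71.6% GC, and the TJP1 window held 2 GC boxes, 1 E-box and 26 CpG at 66.8% GC. Over the 11 starts, 4 windows held the E-box, 7 the GC box and none the TATA box. These starts belong to 6 genes, and 5 of the windows overlapped no annotated exon. Among the windows with the E-box, only that of the first TJP1 start was free of exons. Over 35116 RefSeq promoters the shares were 17.5% for the E-box, 42.6% for the GC box and 10.7% for the TATA box, and the median GC content was 58%. A match describes the letters in the window and not a bound site. Levels per gene do not show which start was used in these cells, so the window printed for a gene may not precede that start.

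KRT19 (Entrez Gene 3880), a type I keratin of simple epithelia and ducts, was almost unread in these libraries. It was at 0.13, 0.42, 0.86 and 0.59 RPKM, which corresponds to 1, 3, 7 and 5 reads. KRT19 thus stayed under 1 RPKM everywhere, and its values are ordered like those of KRT8, lowest with empty vector and highest with AR1-651. The ratio of AR1-651 to empty vector was 6.62 with an interval of 0.817 to 287, so no difference was detectable at this depth. Among other keratins, KRT80 was the one of 3 simple-epithelial keratins in the table to reach 1 RPKM, at 0.61, 3.30, 0.19 and 1.04 RPKM, and it was at least 2-fold higher with AIL in empty vector cells. KRT10, the one of 4 basal and stratified keratins in the table to do so, lay between 45.1 and 63.2 RPKM.

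CDH1 (Entrez Gene 999) was lower under each factor, and lowest under both. E-cadherin mRNA was at 134, 80.8, 81.5 and 52.8 RPKM. The empty vector library was the highest, the libraries with AIL alone or AR1-651 alone were level with each other, and the library with both was the lowest. AIL went with 0.601 times the level in empty vector cells (0.568 to 0.636) and with 0.648 times in AR1-651 cells (0.606 to 0.692). AR1-651 went with 0.606 times the level without AIL (0.574 to 0.64) and 0.653 times with AIL (0.61 to 0.7). None of these 4 steps reached 2-fold, while both together left AR1-651 + AIL at 2.55-fold below empty vector (log2 difference -1.33), a difference lower than those of all but 8.51% of the genes. In all 7 settings tried CDH1 was lower in each of the 4 comparisons. The log2 difference with AR1-651 was the one that depended most on the setting, from -0.29 once the trends with transcript length and GC content were removed to -0.88.

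Of the catenins that bind E-cadherin, CTNNB1 and CTNNA1 did not follow it. CTNNB1, which encodes beta-catenin, was at 134, 207, 207 and 253 RPKM, so that it equalled CDH1 with empty vector (0.996 times) and was 4.79 times CDH1 with AR1-651 + AIL. CTNNA1, which encodes the alpha-catenin that links the complex to actin, lay between 100.5 and 114 RPKM. A pair of partners was at least 2-fold lower with AR1-651 than with empty vector: JUP (plakoglobin), at 125, 109, 54.8 and 47.5 RPKM, and CTNND1 (p120 catenin), at 58.6, 42.4, 27.9 and 28.1 RPKM. JUP was also lower by more than 2-fold with AR1-651 among the AIL libraries. VCL (vinculin), an actin linker, was higher with AIL in both backgrounds, at 24.0, 62.9, 20.3 and 56.9 RPKM. AFDN (afadin) was at least 2-fold higher with AIL in AR1-651 cells, from 6.02 to 14.9 RPKM. Of the 6 partners examined, 0 were higher and 2 lower by 2-fold or more with AR1-651, beside 4.01% and 11.6% of all genes. With AIL 1 was higher and 0 lower in empty vector cells, beside 9.53% and 9.03% of all genes, and 2 were higher and 0 lower in AR1-651 cells, beside 14.9% and 5.74%. For these and the other lists, many differences lay close to 2-fold: of 13 named list genes at least 2-fold lower with AR1-651 than with empty vector, 12 were under 2-fold after median-ratio scaling (FN1 was not), as were AFDN and DSC2 among 11 named genes higher with AIL in AR1-651 cells.

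Of 4 other cadherins examined, 1 reached 1 RPKM in any library. CDH2 (N-cadherin), CDH3, which neighbours CDH1 on chromosome 16, and CDH11 were each at or under 0.09 RPKM, and CDH26 lay between 2.05 and 5.08 RPKM. Among 10 genes in the table that repress cadherin or mark mesenchymal cells, 6 reached 1 RPKM in some library. SNAI2 (Slug), a repressor of CDH1, was listed at 0 with empty vector. It stood at 1.28, 0.68 and 6.80 RPKM in the others, the last being the library in which CDH1 was lowest. SNAI1 (Snail), of the same list, was at 1.49, 0.85, 0.21 and 0.71 RPKM. It was highest with empty vector, the library in which CDH1 was also highest. ZEB1 stayed at or under 0.38 RPKM and ZEB2 at or under 0.02 RPKM. FN1 (fibronectin), a mesenchymal matrix gene, was ordered the other way from SNAI2, at 37.4, 11.1, 15.1 and 6.55 RPKM. TCF3, which encodes the E-box factor E2A, was at 19.9, 11.2, 9.13 and 5.94 RPKM, at least 2-fold lower with AR1-651 than with empty vector. The part of any of these genes in the level of CDH1 was not tested.

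EPCAM (Entrez Gene 4072) was the steadiest of the 10 genes by the ratio of its highest to its lowest library. It was at 113, 99.2, 122 and 108 RPKM. Both AIL libraries were a little below their partners without AIL, at 0.876 times (0.798 to 0.962) in empty vector cells and 0.886 times (0.816 to 0.965) in AR1-651 cells. AR1-651 went with 1.07 times the empty vector level without AIL (0.985 to 1.17) and 1.09 times with AIL (0.991 to 1.19), and both intervals include equal levels. Set against CDH1, EPCAM was 0.842, 1.23, 1.49 and 2.04 times as high. Genes whose products sit with EPCAM or cut it were less steady. CD9, a tetraspanin of the same membrane complexes, was at 340, 222, 1054 and 283 RPKM, and ST14 (matriptase), a protease that cleaves EPCAM, was at 102, 23.2, 53.8 and 13.4 RPKM. SPINT1 and SPINT2, which encode inhibitors of matriptase, were at 95.6, 38.0, 39.7 and 16.6 RPKM and at 398, 255, 475 and 211 RPKM. With AIL, 2 of 5 genes of this list were at least 2-fold lower in empty vector cells (SPINT1 and ST14), beside 9.03% of all genes, and 4 of 5 in AR1-651 cells (these genes with CD9 and SPINT2), beside 5.74%.

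The claudin genes differed by less than 2-fold in every comparison. CLDN4 (Entrez Gene 1364) was the highest, at 242, 340.1, 212 and 239 RPKM. CLDN3 (Entrez Gene 1365), its neighbour among the coding genes of chromosome 7, was at 92.0, 107, 114 and 89.3 RPKM. CLDN7 (Entrez Gene 1366) on chromosome 17, the partner of EPCAM, was at 101, 80.4, 96.7 and 69.4 RPKM. Each claudin had its own order of libraries: CLDN4 was highest with empty vector + AIL, CLDN3 with AR1-651 and CLDN7 with empty vector. CLDN4 was 1.4 times its empty vector level with AIL (1.33 to 1.48) and 1.13 times its AR1-651 level with AIL (1.06 to 1.19), the latter turning to a log2 difference of -0.05 after median-ratio scaling. CLDN3 was 1.16 times with AIL in empty vector cells (1.04 to 1.3) and 0.78 times in AR1-651 cells (0.702 to 0.865). CLDN7 was lower with AIL in both backgrounds, at 0.795 times (0.721 to 0.874) and 0.718 times (0.653 to 0.789). With AR1-651 alone, CLDN3 was 1.24 times its empty vector level (1.12 to 1.39), CLDN4 was at 0.875 times (0.824 to 0.928), and CLDN7 was at 0.956 times with an interval of 0.875 to 1.04 that includes equal levels. After median-ratio scaling the log2 differences of CLDN4 and CLDN7 with AR1-651 turned from -0.19 and -0.06 to 0.08 and 0.20.

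The summed level of the 3 claudins was 435, 528, 423 and 397 RPKM, a narrower range than that of the keratin sum. CLDN4 was 2.63, 3.17, 1.85 and 2.67 times CLDN3, so the neighbouring genes did not keep a fixed proportion either. For CLDN7, 11.7% of the 50-base stretches also occurred in another annotated transcript, and for CLDN3 and CLDN4 1.8% and 1.23%. Of 15 other claudins in the table, 7 reached 1 RPKM in some library. CLDN8, a claudin of tight distal epithelia, reached the highest level of these, at 4.21, 15.9, 12.5 and 42.7 RPKM, at least 2-fold higher in each of the 4 comparisons. CLDN12 was at 15.7, 5.26, 7.00 and 5.76 RPKM, highest with empty vector, and CLDN15, a pore-forming claudin, was at 5.97, 10.7, 2.11 and 6.18 RPKM. CLDN1, an abundant claudin of many epithelia, was at or under 0.05 RPKM.

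OCLN (Entrez Gene 100506658) and TJP1 (Entrez Gene 7082) were the lowest well-read genes and were lower with AR1-651. OCLN, which encodes the membrane protein occludin, was at 21.8, 13.6, 8.48 and 13.2 RPKM. TJP1, which encodes a zonula occludens scaffold, was at 19.0, 20.0, 10.95 and 20.7 RPKM. Both were lowest in the AR1-651 library, and the other TJP1 values were within counting error of each other. OCLN with AR1-651 was at 0.389 times its empty vector level (0.339 to 0.445, 304 against 711 reads), a log2 difference of -1.27 that was lower than those of all but 4.38% of the genes. TJP1 with AR1-651 was at 0.577 times (0.514 to 0.647), a log2 difference of -0.74. In AR1-651 cells AIL went with 1.89 times the TJP1 level (1.69 to 2.11) and 1.55 times the OCLN level (1.34 to 1.8). In empty vector cells AIL went with 0.622 times the OCLN level (0.55 to 0.703) and 1.05 times the TJP1 level (0.952 to 1.17). Between both AIL libraries, OCLN was at 0.969 times (0.85 to 1.11) and TJP1 at 1.03 times (0.938 to 1.14).

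Transcript length and GC content moved with these values. OCLN and TJP1 have long transcripts (6438 and 7950 bases) and lie in the longest sixth of genes, where the median log2 difference with AR1-651 was -0.69 (quartiles -1.01 and -0.32). In the shortest sixth, with CLDN3, that median was 0.17, and in the next, with KRT8, KRT18, EPCAM, CLDN4 and CLDN7, it was -0.02. CDH1, with 4889 bases, lies in a sixth with a median of -0.48. TJP1 and CDH1 therefore lay within the quartiles of genes of their length, whereas OCLN lay under them and KRT8 and KRT18 above theirs. OCLN is also in the sixth with the lowest GC content, whose median log2 difference with AIL in AR1-651 cells was 0.70. Once both trends were removed, the difference of OCLN with AR1-651 was -0.70 and no longer reached 2-fold, and its difference with AIL in AR1-651 cells was -0.06 in place of 0.58. The difference of TJP1 with AIL in AR1-651 cells went from 0.86 to 0.53. Beyond giving these values, the part of length and GC content in the differences was not tested. For OCLN, 9.38% of the 50-base stretches also occurred in transcripts of other genes, chiefly its copy OCLNP1, and for TJP1 0%.

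**Figure D2:**
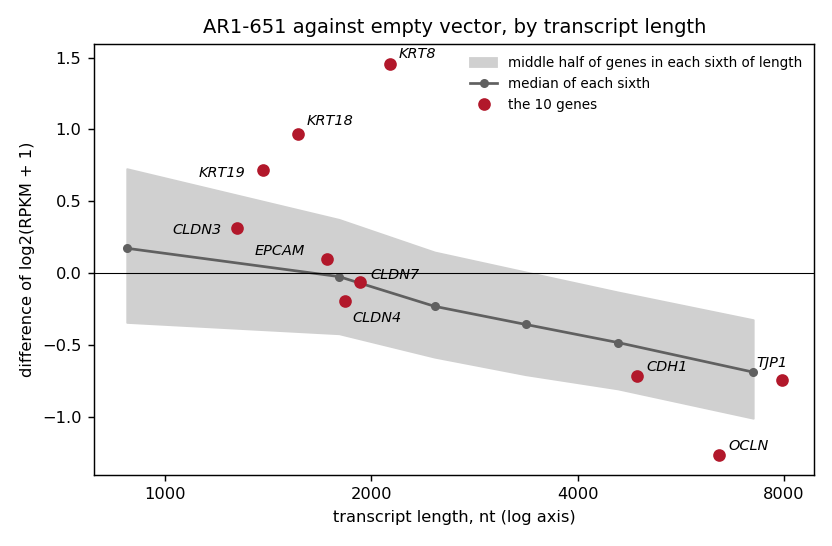
Difference of log2(RPKM + 1) between AR1-651 and empty vector against transcript length (nt, log axis). Grey points and line give the median of each sixth of the genes by length, from 0.17 for the shortest to -0.69 for the longest, the band spans their quartiles, and red points are the 10 genes; KRT8, KRT18 and KRT19 lie above the line, OCLN below the band, and CDH1 and TJP1 near the line.

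The genes around TJP1 and OCLN in the tight junction were examined as lists. All 10 scaffold genes examined had a log2 difference below 0 with AR1-651, 2 of them by 2-fold or more (MAGI1, at 8.04, 3.87, 3.03 and 3.09 RPKM, and MAGI3, at 5.32, 6.21, 1.80 and 4.45 RPKM), with a median of -0.75 against -0.30 for all genes. Of these scaffold genes 5 lie in the longest sixth of genes, whose median was -0.69, and once the trends with length and GC content were removed the median of the list was -0.19 against -0.02 for all genes. After median-ratio scaling YBX3 alone stood above 0, at 0.03. TJP3, a close relative of TJP1, was at 19.8, 38.5, 13.0 and 24.2 RPKM. YBX3, a nucleic acid binding factor held at tight junctions, was the most abundant at 60.5, 40.1, 51.3 and 33.0 RPKM. None of the 6 membrane partners of occludin passed 2-fold in any of the 4 comparisons. MARVELD2 (tricellulin), which neighbours OCLN on chromosome 5, was at 36.4, 43.1, 26.0 and 44.3 RPKM, and its ratio to OCLN was 1.67 with empty vector and between 3.07 and 3.37 in the other libraries. F11R, a junctional adhesion molecule, was at 38.2, 32.3, 25.4 and 24.6 RPKM.

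Set side by side, the 10 genes did not move as a group with AR1-651. With AR1-651 against empty vector, 1 of the 10 genes (KRT8) was at least 2-fold higher, beside 4.01% of all 14626 genes, and 1 (OCLN) at least 2-fold lower, beside 11.6% of all genes. With 10 genes a count of 1 is the smallest above 0, so neither count sets the genes apart from the background. Their median log2 difference was 0.02 against -0.30 for all genes, and after median-ratio scaling 0.28 against -0.09. That scaling moved the median of all genes by 0.22 in this comparison and by -0.15 with AIL in AR1-651 cells, and by less in the others. Once the trends with transcript length and GC content were removed, the median was -0.02 for the 9 genes fitted and -0.02 for all genes. As deposited, 7 of the 10 genes lay above the median of all genes, the exceptions being CDH1, TJP1 and OCLN. KRT8 and KRT18 stood at 2.77 and 1.96 times their empty vector levels, and the claudins and EPCAM between 0.875 and 1.24 times theirs. CDH1, TJP1 and OCLN stood below theirs, CDH1 and TJP1 within the quartiles of genes of their length. Apart from KRT19, only the counting intervals of EPCAM and CLDN7 included equal levels.

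With AIL in empty vector cells, none of the 10 genes was at least 2-fold higher or lower, beside 9.53% and 9.03% of all genes. The differences ran from 0.79 for KRT18 to -0.73 for CDH1, and their median was 0.14 against -0.02 for all genes. With AIL in AR1-651 cells, none was at least 2-fold higher, beside 14.9% of all genes, and 1 (KRT8) was at least 2-fold lower, beside 5.74%. With the trends in length and GC content removed, KRT8 was no longer 2-fold lower. Here 7 of the 10 genes lay below 0, with a median of -0.29 against 0.13 for all genes, and after median-ratio scaling -0.48 against -0.03. With AR1-651 + AIL against empty vector + AIL, none was at least 2-fold higher or lower, beside 1.46% and 3.53% of all genes, and the median was -0.13 against -0.03. CDH1 and CLDN4 had the lowest values in that comparison, at -0.60 and -0.51, and the highest was 0.16, for KRT19. Genes of like GC content had a median of 0.015 for CDH1 and -0.50 for CLDN4. Once the trends with length and GC content were removed, CDH1 stood at -0.41 and CLDN4 at -0.18. The comparisons share libraries where a group appears in more than 1 of them. In bulk RNA a difference in the number of cells of a kind and a difference in RNA per cell cannot be told apart.

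**Figure D3:**
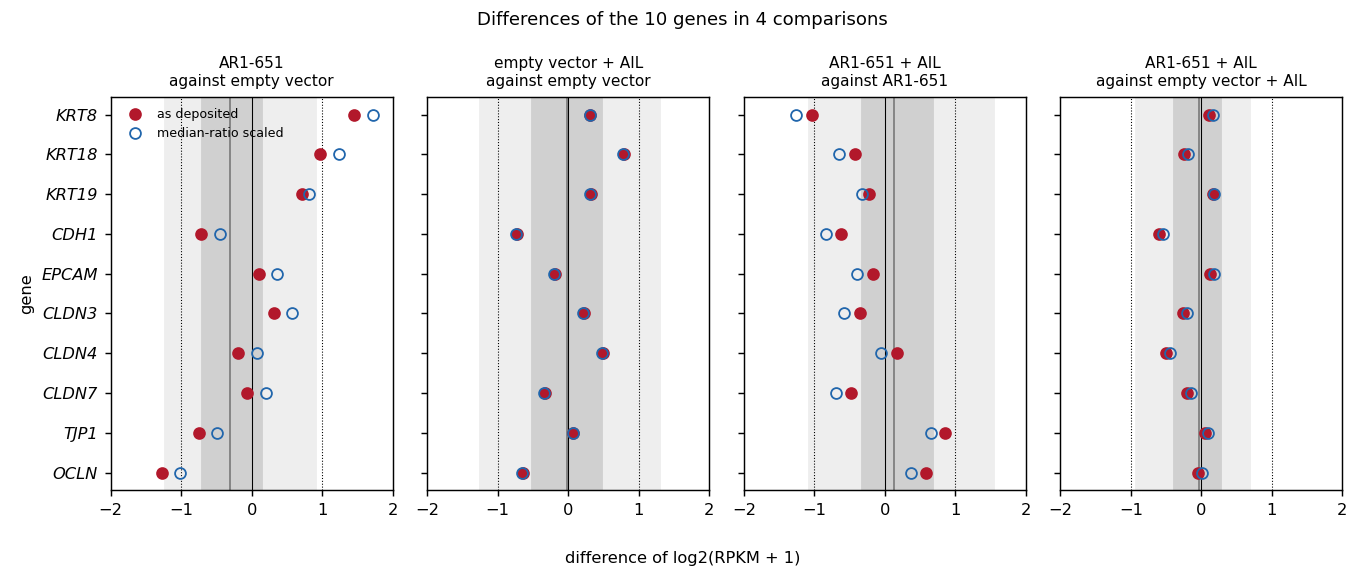
Differences of log2(RPKM + 1) of the 10 genes in the 4 comparisons, as deposited (filled) and after median-ratio scaling (open). Dark and light bands span the quartiles and the 5th to 95th percentiles of all 14626 genes, grey lines their medians and dotted lines 2-fold; KRT8 passes 2-fold up with AR1-651 and down with AIL in AR1-651 cells, and OCLN passes 2-fold down with AR1-651.

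The comparisons of AIL in empty vector cells and in AR1-651 cells share no library. The difference with AIL had the same sign in both for 5 genes (CDH1, EPCAM, CLDN4, CLDN7 and TJP1) and opposite signs for the other 5 (KRT8, KRT18, KRT19, CLDN3 and OCLN), beside opposite signs in 27.8% of all genes. KRT8, KRT18, KRT19 and CLDN3 were higher with AIL in empty vector cells and lower in AR1-651 cells, and OCLN was the reverse. After median-ratio scaling CLDN4 joined those of opposite sign. The comparisons of AR1-651 without and with AIL also share no library, and there the sign was the same for 7 genes and opposite for KRT18, CLDN3 and TJP1, beside opposite signs in 34.9% of all genes. After median-ratio scaling CLDN4, CLDN7 and OCLN joined these, which left 4 genes of the same sign and 6 of opposite sign, and the 35.2% of all genes with opposite signs was little different. Some of these signs carry no direction, since the intervals of EPCAM with AR1-651, of KRT8, OCLN and TJP1 with AR1-651 among the AIL libraries, of CLDN7 with AR1-651 alone, of TJP1 with AIL in empty vector cells and of KRT19 throughout include equal levels.

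**Figure D4:**
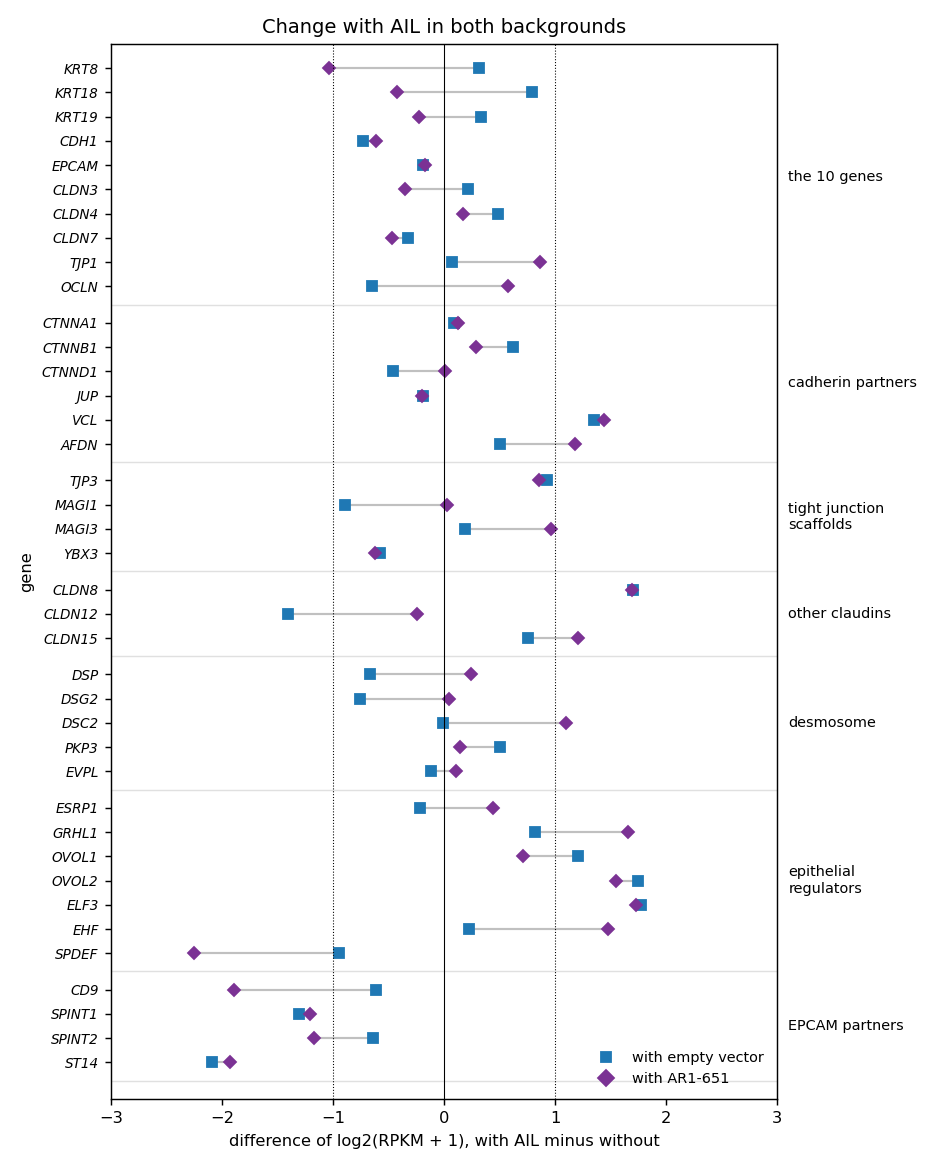
Difference of log2(RPKM + 1) with AIL minus without, in empty vector cells (squares) and AR1-651 cells (diamonds), for the 10 genes and the named genes of 6 lists, with dotted lines at 2-fold. KRT8, KRT18, KRT19, CLDN3 and OCLN have symbols on opposite sides of 0, CDH1 has both below 0, and ELF3, OVOL2, VCL and CLDN8 have both above 2-fold.

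The factors known to maintain epithelial gene expression were examined beside the 10 genes. Of 11 transcription and splicing regulators, 5 were at least 2-fold higher with AIL in empty vector cells, beside 9.53% of all genes, and 5 in AR1-651 cells, beside 14.9%, where 1 was at least 2-fold lower, beside 5.74%. ELF3, an ETS factor of epithelia, was at 26.0 and 91.0 RPKM without and with AIL in empty vector cells and at 20.8 and 71.3 RPKM in AR1-651 cells. OVOL2, a repressor of mesenchymal genes, was at 9.73 and 35.0 RPKM and at 9.98 and 31.1 RPKM. GRHL1, a grainyhead factor of junction genes, was at 4.49, 8.67, 3.13 and 12.1 RPKM, and EHF, another ETS factor, at 70.6, 82.4, 45.5 and 129 RPKM. SPDEF, an ETS factor of luminal prostate cells, was the one lowered, at 84.6, 43.4, 153 and 31.4 RPKM. ESRP1, which directs epithelial splicing, was at least 2-fold lower with AR1-651, at 22.4, 19.1, 10.2 and 14.3 RPKM. Higher levels of ELF3 and OVOL2 with AIL thus stood beside lower CDH1 in both backgrounds, and what relation they bear to the 10 genes was not tested.

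Desmosomes, the junctions to which keratin filaments are anchored, and polarity complexes were examined in the same way. Of 9 desmosome genes that reached 1 RPKM, 2 were at least 2-fold lower with AR1-651, beside 11.6% of all genes: DSP (desmoplakin), which binds keratin filaments, at 40.0, 24.8, 16.4 and 19.5 RPKM, and EVPL (envoplakin), at 17.8, 16.3, 7.21 and 7.83 RPKM. PKP3, a plakophilin, was the most abundant at 54.3, 77.2, 41.8 and 46.2 RPKM, and DSC2 (desmocollin) was at least 2-fold higher with AIL in AR1-651 cells, from 11.01 to 24.8 RPKM. DSP was lowest in the AR1-651 library, in which KRT8 and KRT18 were highest, and a relation between them was not tested. After median-ratio scaling the log2 differences of DSP and EVPL with AR1-651 were -0.98 and -0.955, under 2-fold. Among 9 polarity genes, SCRIB was at least 2-fold lower with AR1-651 both without and with AIL, at 24.0, 40.1, 9.77 and 16.4 RPKM. PALS1, a scaffold of the Crumbs complex, was at 15.0, 17.4, 7.42 and 19.7 RPKM, lowest with AR1-651 as TJP1 was, while CRB3, the Crumbs protein of epithelia, lay between 58.9 and 78.8 RPKM.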

How the data were processed

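RNA of 4 LNCaP libraries was sequenced by the authors on the Illumina HiSeq2000, and they deposited RPKM per gene, rounded to 2 decimals. The submitters' processing notes name BWA 0.7.10-r789 and hg19; the counting tool is not given in the sources used here. The labels describe both a ribosomal depletion kit and oligo(dT) selection. Columns other than RPKM were used only to identify genes.

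Differences of log2(RPKM + 1) were taken between libraries, over genes with 1 RPKM or more in any library. This scale understates the change of low genes. A gene counted as higher or lower from 2-fold. KRT19 failed that filter and was kept in the counts and medians of the 10 genes. Samples were grouped by their labels. Median-ratio factors were 1.05, 1.06, 0.876 and 1.02. Lengths and GC content (95.8% of genes) came from GENCODE release 29 transcripts through RefSeq identifiers, and symbols, gene order and promoters from RefSeq tables, whose build differs from hg19, so gene coordinates are not given. Alternatives were median-ratio scaling, a pseudocount of 0.1, 5 RPKM as filter or none at all, a 1.5-fold threshold, ribosomal protein genes left out, and removal of trends in length and GC rank (polynomial of degree 3).

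The members and lists were chosen with earlier results of these data known. Besides the 10 genes, those named were drawn from the 2 most abundant of each list and from genes past 2-fold with at least 5 RPKM in a library compared. Not every such gene is named. KLK3 is named beside the construct, and others named for low or contrasting values (CDH2, CDH3, CDH11, SNAI1, ZEB1, ZEB2 and CLDN1) were chosen after their values were seen. Some genes and motifs are not reported here. Calculations were tested on simulated reads of 9943 genes, of which 200 with at least 5 RPKM were changed 4-fold. Depth was recovered within 0.04%. Of genes with at least 5 RPKM, 99.5% of the changed and 0.77% of the unchanged were called. The simulated reads had counting error alone, without differences in length trend, GC trend or composition, so these rates do not carry over to the data. Python 3.11.15, NumPy 2.4.6, SciPy 1.17.1, pandas 2.3.3 and matplotlib 3.10.9 were used.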

Additional observations from a re-analysis of the deposited data

Results flagged for a closer look

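For 5 of the 10 genes the difference with AIL in log2(RPKM + 1) had opposite signs in AR1-651 cells and in empty vector cells. The difference in AR1-651 cells minus that in empty vector cells was -1.35 for KRT8 (-1.04 against 0.31), -1.22 for KRT18 (-0.43 against 0.79), -0.56 for KRT19 (-0.23 against 0.33, from 1 to 7 reads), -0.57 for CLDN3 (-0.36 against 0.22) and 1.23 for OCLN (0.58 against -0.65). With 1 library for each group the difference between the backgrounds was not tested. After the trends with transcript length and GC content were removed, the value was 0.47 for OCLN, whose difference in AR1-651 cells was then -0.06, and -0.31 for CLDN3.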

How the results depend on the processing

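In the 7 alternatives tried, no difference of a single gene that had reached 2-fold changed sign, while 11 of the 40 differences of the 10 genes, all under 2-fold, took both signs across settings. Of 84 values of the counts and medians of the 10 genes, 70 stayed near the reported value and 14 moved. With AR1-651 against empty vector, 2 genes were higher with a pseudocount of 0.1, with median-ratio scaling, or with the length and GC trends removed, and 0 were lower with those trends removed; the median was 0.28 with median-ratio scaling. At a 1.5-fold threshold that comparison had 3 higher and 3 lower, AIL in empty vector cells 1 higher and 2 lower, AIL in AR1-651 cells 1 higher and 2 lower, and AR1-651 + AIL against empty vector + AIL 1 lower. AIL in empty vector cells gave 1 higher with a pseudocount of 0.1, which was KRT19 at 1 and 3 reads. With the trends removed, AIL in AR1-651 cells gave 0 lower, as KRT8 stood at -0.95. The trend was fitted for 9 of the 10 genes, without KRT19. Of 290 values of single genes, 265 stayed. Of the single-gene differences between libraries, 15 moved within their side of 2-fold, 4 newly reached 2-fold and 2 no longer did. Of the differences between the AIL changes of both backgrounds 4 moved, 2 of them across 2-fold: KRT19 to -1.65 with a pseudocount of 0.1 and OCLN to 0.47 with the trends removed. Apart from the thresholds and the left-out gene, the cause was not tested. No paired analysis was possible because each condition had 1 library. Leaving out a library was not possible for the same reason. Depth limited KRT19, which had 1 to 7 reads.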
